A study of Drosophila melanogaster with 6 samples.

Results

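The Jonah proteases encoded at cytological divisions 25, 44 and 99 of the Drosophila melanogaster genome were followed in larvae whose mothers had eaten control or high-sucrose food. Members were taken by gene symbol, as every probe set whose annotated symbol starts with Jon25, Jon44 or Jon99. The rule found 6 of the 11982 genes that had a probe set of their own, with 1 probe set each among the 18769 tested: Jon25Bi, Jon25Bii, Jon25Biii, Jon44E, Jon99Ci and Jon99Fi. RefSeq lists 9 genes of this kind, and for the remaining 3, Jon99Cii, Jon99Ciii and Jon99Fii, no probe set carried the symbol or the gene ID, so they were not analysed here. No probe set was annotated to more than 1 member, and all 6 have the plain suffix _at. Members of this family resemble one another in sequence, and whether a probe set also bound the RNA of an unlisted relative was not tested.

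Jonah genes encode small secreted serine proteases of the chymotrypsin fold, named for the polytene bands at which they lie. They are made by the absorptive cells of the midgut, and trypsin-like and chymotrypsin-like enzymes of this kind are secreted into the gut lumen as inactive precursors that cut dietary protein into peptides once activated. In larvae and adults they are among the most strongly transcribed genes of the gut, and several occur in tandem copies.

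RNA came from whole male larvae of w1118, a strain carrying a mutant white gene, in the third instar. In the control group (3 arrays) the mothers had eaten food with 0.15 M sucrose for 7 days before mating; in the high-sucrose group (3 arrays) they had eaten food with 1 M sucrose for the same time. Fathers were also w1118. All embryos were laid on control food, and the larvae of both groups were reared at 25 C. They spent 12 h on fresh control food before collection. By this protocol the larvae themselves ate the same diet. The titles, however, call the larvae control reared or high sugar reared. The groups here follow the treatment field, which names the maternal diet. The titles and descriptions call the larvae wandering, a stage at which feeding has stopped, whereas the source and characteristics fields and the design text call them mid-stage larvae of the third instar; the conflict matters for digestive genes and could not be settled from the labels. Each array is titled a biological replicate, and the sources used here do not say how many larvae went into each.

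Values are linear Affymetrix intensities, a measure of RNA abundance that serves to compare arrays within a probe set, not genes with one another. Array medians lay between 51.5 and 55.7. Bright probe sets lay lower in the high-sucrose arrays as a whole: their upper quartile, from 212.8 to 216.3, stayed under the 218.2 to 224.2 of the control arrays. The median log2 difference between groups was -0.034 over all probe sets, -0.053 over the brightest 25%, -0.074 over the brightest 5% and -0.083 over the brightest 1%. Because 5 of the 6 Jonah probe sets were in the brightest 5%, the members were read against that background and under 3 other scalings of the arrays. Markers of cell types and tissues, neighbouring genes and genes of like profile were read only with the arrays as deposited.

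The larval identity of the samples was checked with markers. Genes of the salivary gland (summed intensity of 6 genes, 44430 to 51645 in control arrays against 49181 to 53111 after maternal high sucrose), fat body (4 genes, 30701 to 33197 and 29094 to 30008) and muscle (3 genes, 9152 to 10068 and 9373 to 10502) were bright in both groups. The yolk protein genes of adult females were dim (3 genes, 76.4 to 124.5 and 86.3 to 129.8). Markers of the midgut absorptive cells, the cells that make Jonah proteases, were present in both groups and are given with the gut genes.

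Jon99Fi and Jon99Ci, both from the tip of chromosome arm 3R, fell in the offspring of high-sucrose mothers, to 67.9% and 72.9% of the control intensity. Jon25Biii on 2L was lower in every high-sucrose array but did not pass the test. Its tandem neighbours Jon25Bii and Jon25Bi showed almost the same mean in both groups. Jon44E, alone on 2R, was the dimmest of the 6 and its groups overlapped. In all, 2 of the 6 fell, 0 rose and 4 did not pass, where a call means an adjusted p under 0.05 in limma with Benjamini-Hochberg adjustment over all 18769 probe sets. Over all probe sets, 0.57% were called lower and 0.0533% higher, and among the brightest 5% of probe sets 4.58% were called lower. In 3 of the 6 all control arrays lay above all high-sucrose arrays, as in 12.6% of all probe sets and 36.4% of the brightest 5%. The 6 members had a median log2 difference of -0.20.

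**Figure D1:**
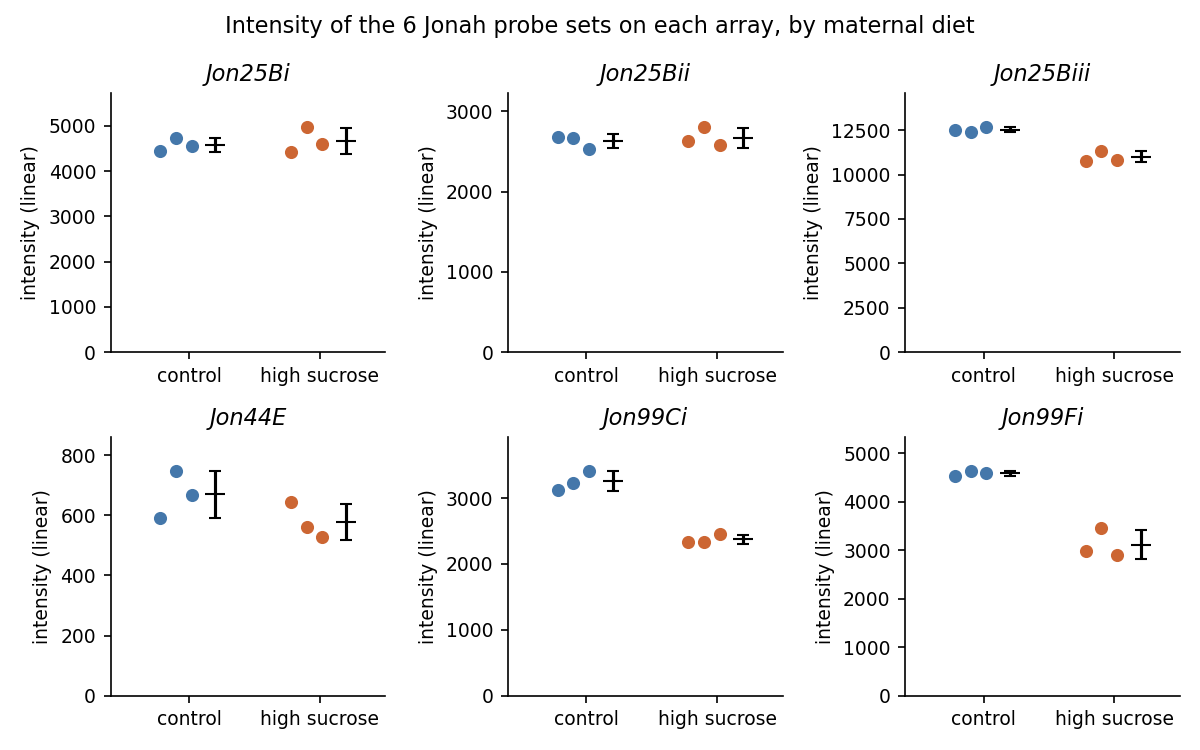
Linear intensity (vertical axis, from 0) of each of the 6 Jonah probe sets on the 3 control arrays (blue) and the 3 high-sucrose arrays (orange), with the group mean and its SD as a black bar. The groups are apart for Jon99Fi, Jon99Ci and Jon25Biii and overlap for Jon44E, Jon25Bii and Jon25Bi.

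Jon99Fi, a member of the pair at 99F, had intensities of 4540, 4642 and 4589 on control arrays 1, 2 and 3 and of 2976, 3467 and 2908 on high-sucrose arrays 1, 2 and 3. The control arrays lay close together, the second high-sucrose array was the highest of its group, and 1072 units separated the lowest control from the highest high-sucrose array. The group means were 4590 ± 51.0 and 3117 ± 305 (mean ± SD, n = 3 each, as throughout). The log2 difference, high-sucrose minus control on log2(intensity + 16), was -0.56 ± 0.067 (SE; 95% interval -0.71 to -0.41; limma adjusted p = 0.011). Among all probe sets 146 had a lower difference, and among the 939 brightest 16 did. The call was lost without control 2 (limma adjusted p = 0.102) and without control 3 (limma adjusted p = 0.0507), with log2 differences of -0.55 and -0.56.

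Jon99Ci, from the triplet at 99C, had intensities of 3119, 3231 and 3416 in the control and 2334, 2337 and 2450 in the high-sucrose arrays. Both groups were tight, and 669 units lay between them. The means were 3255 ± 150.5 and 2374 ± 65.9, a log2 difference of -0.45 ± 0.051 (SE; 95% interval -0.57 to -0.34; limma adjusted p = 0.00788). In this probe set the call was lost without control 2 (limma adjusted p = 0.0848), where the log2 difference was -0.46. Neither Jon99Fi nor Jon99Ci passed when the variance was modelled without its trend on intensity (limma adjusted p = 0.183 and 0.192), a setting under which 1 probe set of the whole array was called higher and 3 lower.

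Jon25Biii was among the brightest signals on the arrays, with 4 brighter probe sets. It read 12534, 12374 and 12663 in the control arrays and 10785, 11345 and 10844 in the high-sucrose arrays. All 3 control arrays lay above all 3 high-sucrose arrays, with means of 12524 ± 144.8 and 10991 ± 307.8. The log2 difference was -0.19 ± 0.043 (SE; 95% interval -0.29 to -0.091; limma adjusted p = 0.112) and did not pass. Among the brightest 1% of probe sets, 60.6% likewise had control arrays that lay wholly above the high-sucrose arrays, so the separation of Jon25Biii was shared with most signals of its brightness. Among these 188 probe sets 11 had a lower difference than Jon25Biii. Its signal stood at 96.1% to 99.1% of the highest intensity on each control array and at 89.4% to 93.9% on each high-sucrose array; whether the upper end of the scale limits the measured difference was not tested. Jon25Biii passed when dim probe sets were left out, with the log2 difference as before (limma adjusted p = 0.0284 over the brighter 50% of probe sets and 0.0124 over the brightest 25%). Under quantile scaling and cyclic loess its log2 difference shrank to -0.090 and -0.086 (limma adjusted p = 0.405 and 0.401).

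Jon25Bii read 2679, 2673 and 2527 in control and 2626, 2803 and 2576 in high-sucrose arrays. The groups overlapped, and the means were 2627 ± 86.1 and 2668 ± 119.1. The log2 difference was 0.022 ± 0.052 (SE; 95% interval -0.094 to 0.138; limma adjusted p = 0.903). Jon25Bi, next to it, read 4446, 4736 and 4555 in control and 4420, 4969 and 4608 in high-sucrose arrays. These groups overlapped as well, with means of 4579 ± 146.2 and 4666 ± 278.7. Its log2 difference was 0.026 ± 0.055 (SE; 95% interval -0.098 to 0.15; limma adjusted p = 0.892). The intervals of both genes lay above the whole interval of Jon99Fi and of Jon99Ci. A difference as large as the -0.45 of Jon99Ci therefore lay outside what the data allow for either gene under this model, while changes within these intervals cannot be told from none.

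Jon44E read 591.8, 748.2 and 668.7 in control and 645.1, 559.7 and 527.0 in high-sucrose arrays. The highest high-sucrose array lay above the lowest control array, so the groups overlapped. The means were 669.6 ± 78.2 and 577.3 ± 61.0, a log2 difference of -0.21 ± 0.097 (SE; 95% interval -0.43 to 0.012; limma adjusted p = 0.43). Its coefficient of variation, 11.7% in control and 10.6% in high-sucrose arrays, was the largest of the 6 members in both groups. The point estimate was as large as that of Jon25Biii, and the wider interval came with the larger spread between arrays.

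The other scalings moved all 6 members upward and changed no call. Jon99Fi had a log2 difference of -0.53 after median centring, -0.47 after quantile scaling and -0.48 after cyclic loess, and Jon99Ci of -0.43, -0.34 and -0.38. Both passed in each (limma adjusted p = 0.0083 to 0.0225). Jon25Bii had log2 differences of 0.05, 0.14 and 0.10 and Jon25Bi of 0.05, 0.11 and 0.11, none of which passed.

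**Figure D2:**
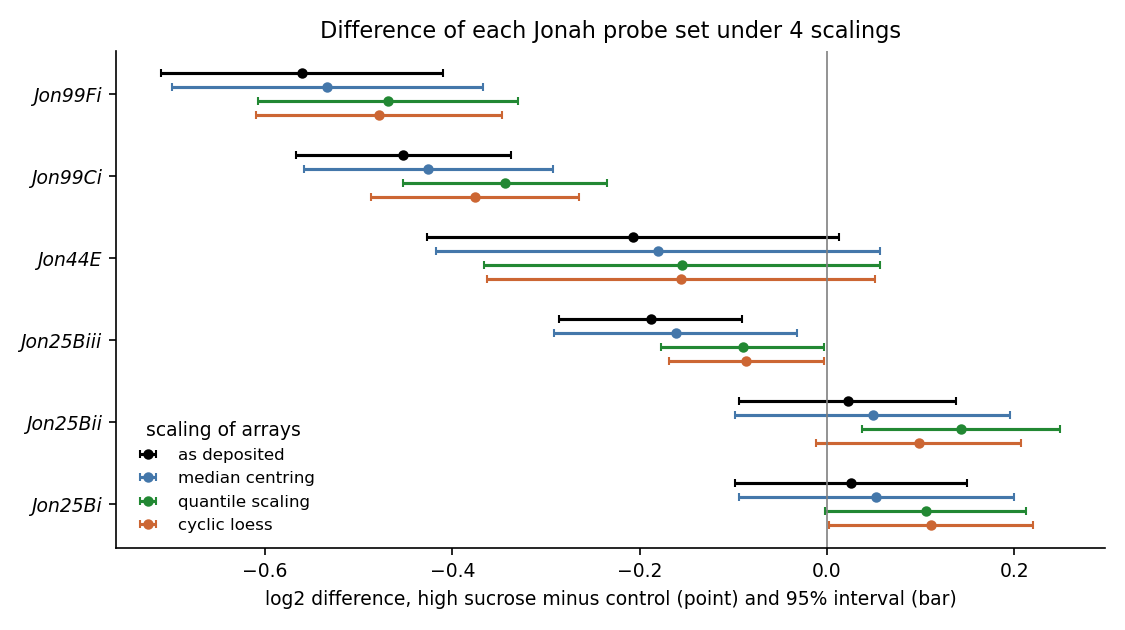
Log2 difference (points, high sucrose minus control, horizontal axis) with its 95% interval (bars) for each Jonah probe set, with the arrays as deposited and under 3 other scalings. The intervals of Jon99Fi and Jon99Ci stay below 0 in all 4, and the order of the genes is almost the same in each.

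Whether members changed unequally was asked from the log2 ratio of one member to another within each array, which an overall scaling of an array cannot alter. For 9 of the 15 pairs of members the ratios of the 3 control arrays did not overlap those of the 3 high-sucrose arrays. The 15 pairs are built from the same 6 members and are not independent. How often pairs of other probe sets fail to overlap was not computed. An exact two-sided permutation test of 3 arrays against 3 cannot go below p = 0.1, which these 9 reached (0.167 after Benjamini-Hochberg adjustment over the 15 pairs), so none passed. Within the 25B triplet, Jon25Bi and Jon25Bii differed in their log2 difference by 0.0039 ± 0.045 (SE, n = 3 per group; exact permutation p = 0.9). Jon25Bi lay 0.21 ± 0.043 and Jon25Bii 0.21 ± 0.039 above Jon25Biii (SE; exact permutation p = 0.1 for each). Under quantile scaling these last differences were 0.20 and 0.23, and under cyclic loess 0.20 and 0.18. Jon25Bi lay 0.59 ± 0.046 above Jon99Fi and 0.48 ± 0.07 above Jon99Ci (SE; exact permutation p = 0.1 for each). Jon99Ci and Jon99Fi differed by 0.11 ± 0.10, with overlapping ratios (SE; exact permutation p = 0.4).

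The second high-sucrose array was the highest of its group for 4 of the 6 members and the lowest for none. Without it the log2 difference of Jon99Fi was -0.64 (limma adjusted p = 0.00175), that of Jon25Biii -0.21 (limma adjusted p = 0.0595), and those of Jon25Bi and Jon25Bii turned to -0.020 and -0.014 (limma adjusted p = 0.915 and 0.945). In the control group, array 1 was the lowest for 4 of the 6 members.

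Brightness and difference were set side by side for all probe sets. In the brightest 5%, 78.4% of the log2 differences were below 0, against 58.9% over all. Jon25Bi and Jon25Bii lay above most signals of their brightness, with 799 and 792 of the 939 brightest probe sets lower. Jon99Ci and Jon99Fi lay near the low end, with 33 and 16 lower. The members thus spread from near the low end to the upper part of the differences found among bright probe sets.

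**Figure D3:**
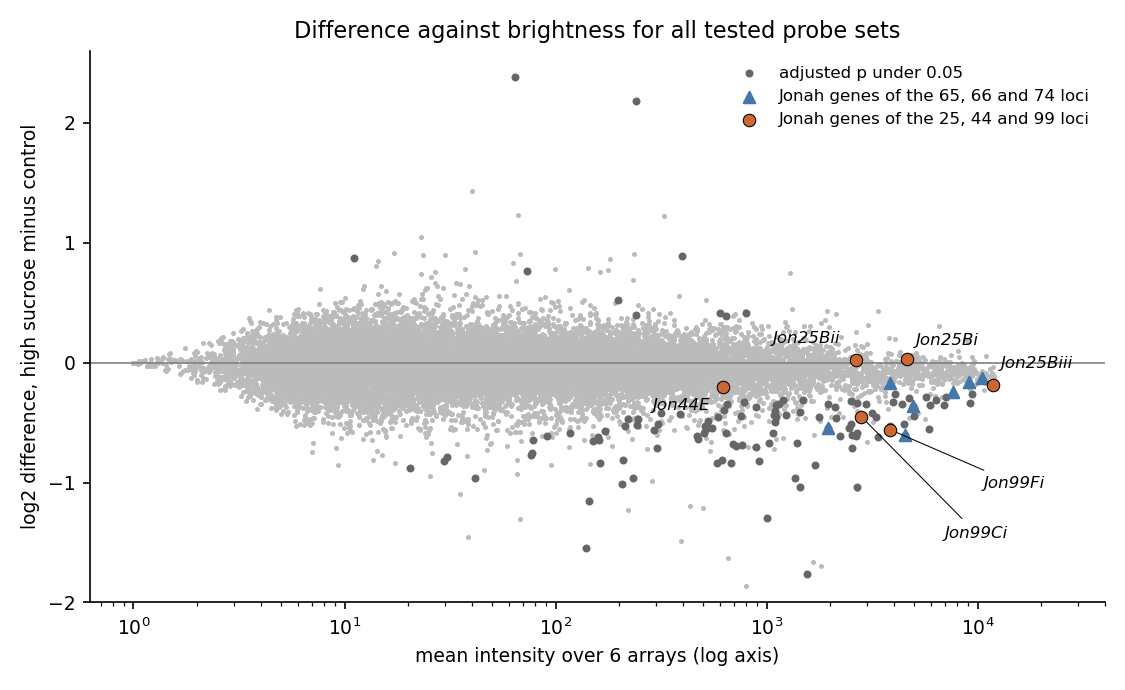
Log2 difference (vertical axis) against mean intensity over the 6 arrays (horizontal log axis) for all 18769 probe sets (grey), those with an adjusted p under 0.05 (dark), the Jonah genes of divisions 25, 44 and 99 (orange circles) and those of 65, 66 and 74 (blue triangles). Jon99Fi and Jon99Ci lie among the called probe sets, Jon25Biii at the right edge, and Jon25Bi and Jon25Bii just above 0.

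The remaining Jonah genes, other gut enzymes and the lists below were read from the same fit. In it 0.57% of all probe sets and 4.58% of the brightest 5% were called lower, and 0.0533% of all were called higher. No set test was run, and the lists were chosen with earlier results of these data known. The median log2 difference of the brightest 5% was -0.074. For the counts at an unadjusted p under 0.05, here and below, the share of all probe sets was not computed. Those counts therefore have no background beside them. Of the 7 Jonah genes at divisions 65, 66 and 74, 3 fell and 4 did not pass, with a median log2 difference of -0.25, and in all 7 the control arrays lay above the high-sucrose arrays, as in 12.6% of all probe sets, 36.4% of the brightest 5% and 60.6% of the brightest 1%. Jon74E (5482 ± 107.0 to 3602 ± 163.6), Jon65Ai (2322 ± 70.3 to 1594 ± 140.0) and Jon65Aii (5572 ± 64.1 to 4335 ± 356.6) fell, with limma adjusted p = 0.00188, 0.0125 and 0.0357. Every Jonah gene of that set had a difference below 0, from -0.60 to -0.13, whereas Jon25Bi and Jon25Bii did not; the difference between the sets was not tested. Limma gave 7 of those 7 lower and 0 higher at an unadjusted p under 0.05. Without control 2 or without control 3, 1 of those 7 passed after adjustment. Of 18 other midgut serine proteases 5 fell and 13 did not pass (median -0.18). Limma gave 9 of these 18 lower and 1 higher at an unadjusted p under 0.05. CG11912 fell from 4901 ± 141.4 to 3851 ± 44.6, CG10472 from 2193 ± 231.7 to 1215 ± 218.5 and CG11911 from 5743 ± 216.6 to 4215 ± 337.0 (limma adjusted p = 0.0128, 0.0191 and 0.0211). None of these 18 passed without control 2, high-sucrose 1 or high-sucrose 3 (each left out alone), and 1 passed without control 3. Of 10 trypsins, which cut after lysine and arginine, 0 passed and 10 did not (median -0.24; limma gave 6 lower and 0 higher at an unadjusted p under 0.05). The trypsin etaTry was at 856.1 ± 29.9 and 668.0 ± 57.9, alphaTry at 2315 ± 377.0 and 1594 ± 84.6, and kappaTry at 627.0 ± 81.6 and 403.5 ± 91.7 (limma adjusted p = 0.0688, 0.0805 and 0.112).

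**Figure D4:**
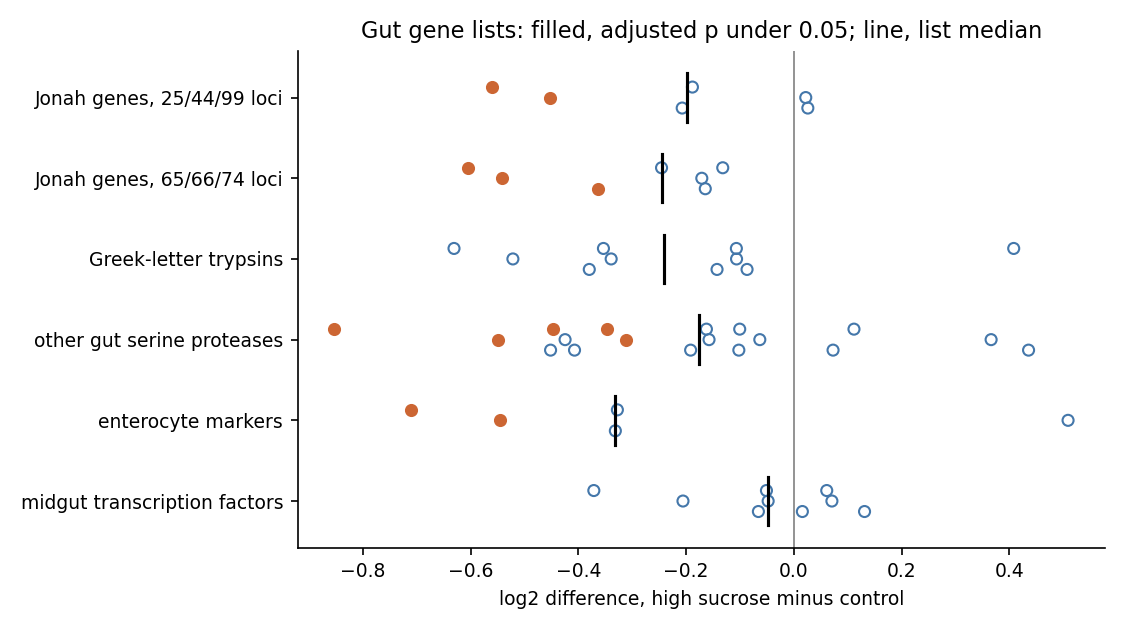
Log2 difference (horizontal axis) of each measured gene in the Jonah set of divisions 25, 44 and 99 and in 5 lists of gut genes, filled where the adjusted p was under 0.05, with a black line at each list's median. The 25, 44 and 99 set holds 2 filled points and 2 points just above 0, and all 7 genes of the 65, 66 and 74 set lie below 0.

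Of 5 measured markers (9 listed) of absorptive midgut cells, which make Jonah proteases, 4 had log2 differences below 0. Limma gave these 4 lower and 0 higher at an unadjusted p under 0.05. After adjustment 2 of the 5 fell and 3 did not pass, where 0.57% of all probe sets were called lower. Their summed intensity ranged over 8398 to 9076 among control arrays and 5839 to 6145 among high-sucrose arrays. The 2 called genes, Bace and Mal-A1, had the highest intensities of the 5 and weigh most in this sum. The aspartyl protease gene Bace fell from 2918 ± 150.9 to 1994 ± 41.6 and the maltase gene Mal-A1 from 3148 ± 382.7 to 1909 ± 59.4 (limma adjusted p = 0.00351 and 0.00788). Npc2f, a gene of the sterol-binding Npc2 family, was at 1239 ± 84.5 and 980.5 ± 45.9 (limma adjusted p = 0.064), and mex1, a gene expressed in the midgut, at 1347 ± 84.9 and 1070 ± 65.9 (limma adjusted p = 0.0727). The mucin gene Muc68E, dim in both groups at 10.6 ± 7.48 and 21.4 ± 8.28, had a log2 difference of 0.51 (limma adjusted p = 0.421). Fewer midgut cells in a larva and less RNA per midgut cell cannot be told apart in whole-larva RNA, and the part of either in the fall of Jon99Fi and Jon99Ci was not tested. Jon25Bi and Jon25Bii, measured in the same larvae, had log2 differences near 0, and how this relates to either was not tested.

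Markers of 3 other midgut cell types were read next, and 0 passed (limma; at an unadjusted p under 0.05, 1 copper cell gene was lower, and 2 enteroendocrine genes were lower and 1 higher). The acid-secreting copper cells were represented by 3 genes (summed intensity 563.1 to 714.7 against 486.0 to 572.8), of which the proton pump subunit gene Vha100-4 was at 499.7 ± 77.0 and 361.5 ± 22.7 (limma adjusted p = 0.127). The hormone-secreting enteroendocrine cells had 7 genes (936.7 to 1110 and 952.1 to 1023), with Dh31 at 107.6 ± 12.4 and 81.2 ± 9.28 (limma adjusted p = 0.255). Midgut progenitors had 3 genes (388.9 to 412.0 and 359.2 to 370.0), with esg at 154.5 ± 9.62 and 134.9 ± 2.66 (limma adjusted p = 0.41). Of 6 genes of the peritrophic matrix, the chitin lining of the gut, and its source the proventriculus, 1 fell (23574 to 24291 and 23044 to 23957): CG17147, from 885.6 ± 33.2 to 540.2 ± 21.7 (limma adjusted p = 0.00188). The median log2 difference of these 6 was -0.025, with 3 below 0. For comparison, 0.57% of all probe sets were called lower.

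Regulators of midgut identity and of the response to dietary sugar were read as well. Of 9 midgut transcription factor genes 0 passed (limma; 2 were lower and 0 higher at an unadjusted p under 0.05; median -0.048). GATAe, the GATA factor that maintains midgut gene expression, was at 149.5 ± 20.95 and 111.4 ± 6.63 (log2 difference -0.37, limma adjusted p = 0.186). Its groups did not overlap, nor did those of nub. Over all probe sets 12.6% were likewise lower without overlap. The factor nub was at 229.2 ± 18.3 and 196.4 ± 11.7 and srp at 410.7 ± 32.1 and 451.3 ± 34.5 (limma adjusted p = 0.343 and 0.539). Of 8 genes of Activin signalling and sugar-responsive transcription 0 passed (limma; 0 either way at an unadjusted p under 0.05; median -0.068), and sug, a zinc-finger factor of the sugar response, was at 140.2 ± 14.5 and 116.8 ± 13.6 (limma adjusted p = 0.415). Of 8 amino acid and peptide transporters, which take up the products of protein digestion, 0 passed (limma; 1 lower and 1 higher at an unadjusted p under 0.05; median 0.011). Among them CG8785 was at 333.2 ± 38.6 and 248.5 ± 5.64 (limma adjusted p = 0.0912) and CG9444 at 110.4 ± 7.15 and 150.7 ± 22.3 (limma adjusted p = 0.177).

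Outside the gut, 2 of 8 haemocyte markers fell (summed intensity 7524 to 8671 against 7093 to 7584), PPO3 and He (limma adjusted p = 0.0125 and 0.0282), with 4 lower and 1 higher, Pxn, at an unadjusted p under 0.05. In the male germline 1 of 6 testis markers rose (2393 to 2702 and 3054 to 3266), the sperm tail gene Mst98Ca (limma adjusted p = 0.0357); all 6 had log2 differences above 0, from 0.26 to 0.45, and 5 were higher at an unadjusted p under 0.05. Of the markers of salivary gland, fat body, muscle, neurons (3 genes, 327.0 to 400.0 and 361.6 to 376.7), Malpighian tubules (4 genes, 919.2 to 1026 and 889.7 to 921.5), cuticle (2 genes, 2731 to 3229 and 2391 to 2478) and adult females 0 passed. At an unadjusted p under 0.05, limma gave 2 higher salivary gland genes, and 3 lower in fat body, 1 in Malpighian tubules and 1 in cuticle, and 0 either way for the other 3 lists. Over all probe sets 0.57% were called lower and 0.0533% higher. The part of these tissues in the differences of the Jonah genes was not tested.

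The genes around each Jonah locus were compared with the members, taking the 3 nearest protein-coding genes on each side in the RefSeq order. No other protein-coding gene was listed between tandem members. Of these 24 neighbours 23 had a probe set of their own and 0 passed (limma; 3 were lower and 0 higher at an unadjusted p under 0.05), where 0.623% of all probe sets were called in either direction. Around the 25B triplet the measured neighbours mRpL24, betaggt-I, jet, Marcal1 and CG34125 had log2 differences from -0.084 to -0.025. Beside Jon44E, CG8586 was at 222.2 ± 18.7 and 191.1 ± 8.40 (log2 difference -0.20; limma adjusted p = 0.354), near the -0.21 of Jon44E. The other 5 neighbours there ranged from -0.12 for CG8738 to 0.19 for CG8584, with Acsl at -0.046, CG30355 at 0.0042 and UQCR-11L at 0.12. Around the 99C triplet the genes CG15522, alpha-Man-Ic and Cog7 on the side of Jon99Ci had differences of -0.015, -0.064 and -0.018, and CG31036, Capa and trp on the other side of -0.11, -0.17 and -0.36. All 6 neighbours of the 99F pair had differences below 0, from -0.12 to -0.49. The lowest was PH4alphaNE1, one of several prolyl 4-hydroxylase genes there, at 64.8 ± 2.66 and 41.7 ± 4.14 (limma adjusted p = 0.104). Whether Jon99Fi and its neighbours differ in their response was not tested.

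**Figure D5:**
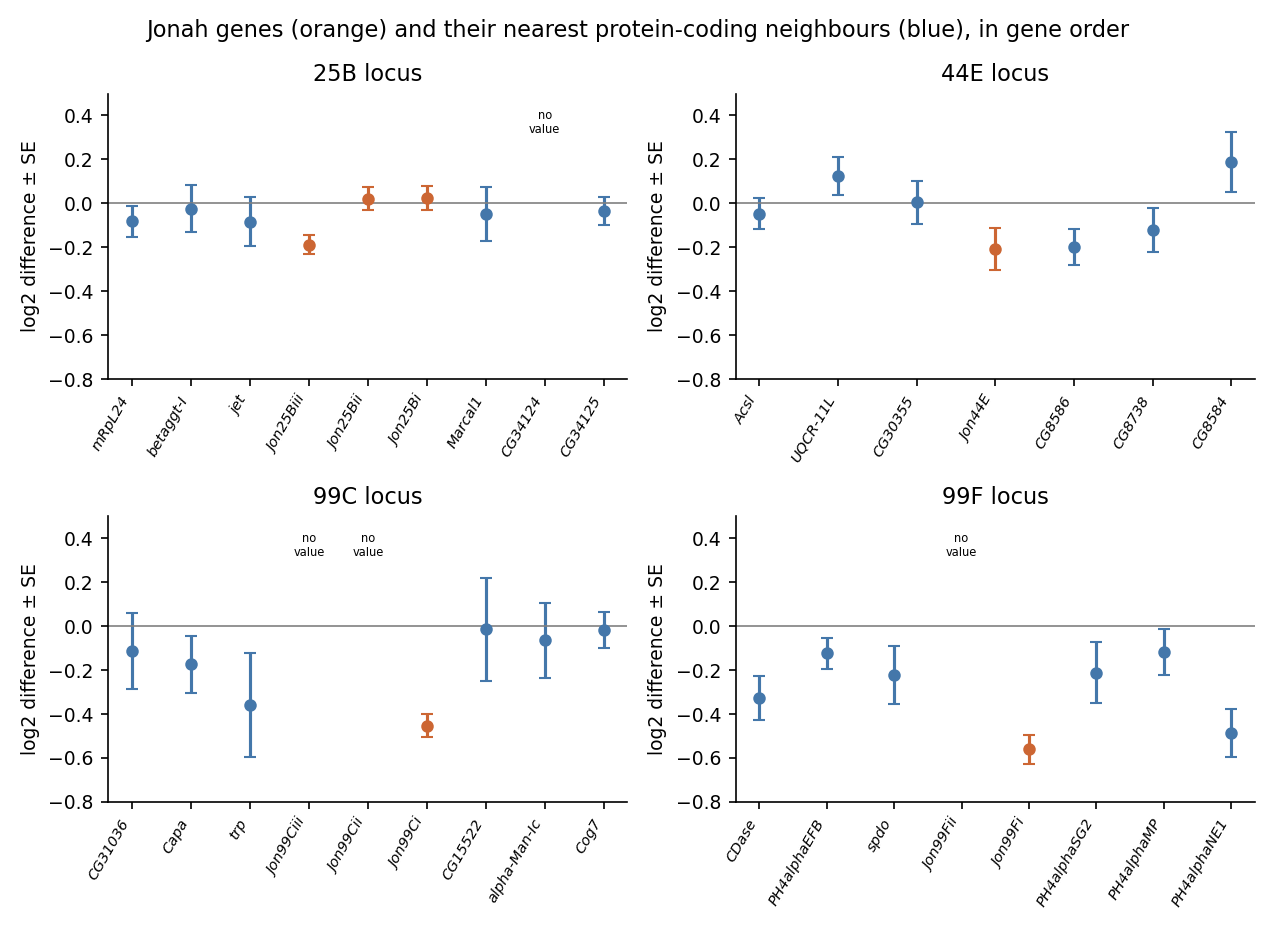
Log2 difference, high sucrose minus control, with its SE for each Jonah gene (orange) and its 3 nearest protein-coding neighbours on either side (blue), in gene order at 4 loci; spacing is by order, not distance. Jon99Ci and Jon99Fi are the called genes, and Jon25Biii lies below its tandem neighbours.

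Genes with a profile like the mean of the 6 members were sought among 8281 probe sets of 1 gene outside the family with a mean intensity above the median. Likeness was the root-mean-square distance over the 6 arrays between log2 profiles, each minus its own mean. The 6 nearest were CG5399 (0.012), CG11109 (0.018), CG8997 (0.019), CG3589 (0.023), mag (0.0236) and Vps4 (0.0247), against a median distance of 0.137. CG5399 was at 3960 ± 125.2 and 3345 ± 103.6 and mag, a lipase gene of the gut, at 9849 ± 182.5 and 8471 ± 152.0 (limma adjusted p = 0.0688 for both). None of the 6 passed. The mean profile lay nearest to Jon25Biii among the members (0.037) and farthest from Jon99Fi (0.176). Jon44E lay at 0.112, Jon99Ci at 0.127 and Jon25Bi and Jon25Bii at 0.131 each, near the median distance of 0.137. The 6 nearest genes are thus like the mean profile and Jon25Biii, not like each member.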

How the data were processed

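The authors deposited 1 linear intensity per probe set and array, per the deposited value table, for 18952 probe sets on 6 arrays (3 per maternal diet). The labels' protocols name Tripure extraction, DNase treatment and labelling of 2 ug of RNA as biotinylated cRNA. The sources used here do not give the summary method or the scaling. The 183 control probe sets were left out. Symbols came from the platform annotation, and names and gene order from RefSeq (Release 6 plus ISO1 MT). Of the 18769 probe sets tested, 13647 carried 1 gene, 402 several and 4720 none; a gene with several was represented by its brightest.

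Log2(intensity + 16) was fitted for all 6 arrays with limma 3.58.1 in R 4.3.3 (2 groups, no covariate, empirical Bayes variances with an intensity trend, 4 residual and 5.16 prior degrees of freedom). P-values were adjusted over the whole array by Benjamini-Hochberg (threshold 0.05). Single ratios were compared with exact permutation tests (scipy 1.17.1). No set test was run. On simulated data (10 runs, 18769 probe sets, 200 bright ones changed), limma recovered 84.2% of log2 changes of 0.4 and 96.9% of those of 0.6, and 6.62% of its calls were false. The simulated noise was independent and normal, with the variances of the fit with an intensity trend. It held no shift of bright probe sets between groups. These rates describe that model and may not hold for the measured arrays. The number of arrays limits the precision.

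The members and lists were chosen with earlier results of these data known; the neighbours, the pairwise ratios and their scalings were added after values were seen. All members were named, the most significant genes of each list (up to 3), and the 6 genes most like the members. List names were matched to current symbols. Alternatives were pseudocounts of 1 and 64, 3 scalings, 2 filters on dim probe sets, no intensity trend, the replicate number as a block, and each array left out. Same-numbered arrays of the groups did not deviate together (correlations 0.052, 0.022 and -0.043).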

Additional observations from a re-analysis of the deposited data

How the results depend on the processing

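Over the 15 alternatives the counts of members called higher stayed at 0, and Jon99Fi and Jon99Ci kept their direction, which groups that do not overlap make certain when arrays are left out. Jon99Fi passed in 12 of the 15, Jon99Ci in 13, Jon25Biii in 2 and Jon44E in 0. Without the intensity trend 0 members fell, with log2 differences of -0.56 for Jon99Fi and -0.45 for Jon99Ci (limma adjusted p = 0.183 and 0.192), and 1 probe set of the array was higher and 3 lower. Over the brighter 50% and 25% of probe sets Jon25Biii passed at -0.19, and in the 25% filter 186 probe sets were lower. The SE of Jon25Biii went from 0.043 to 0.032 and 0.027, and its unadjusted limma p from 0.00178 to 0.00032 and 0.00013. These filters fit the variances anew and adjust over fewer probe sets, and the part of each was not separated. Leaving out single arrays gave 0 to 2 members lower (0 without control 2, 1 without control 3), 2 to 9 probe sets higher and 11 to 154 lower. The ranges of log2 difference were then -0.64 to -0.51 for Jon99Fi, -0.48 to -0.42 for Jon99Ci, -0.21 to -0.17 for Jon25Biii and -0.29 to -0.13 for Jon44E. Those of Jon25Bi (-0.020 to 0.064) and Jon25Bii (-0.014 to 0.047) spanned 0: both turned negative without high-sucrose 2, and Jon25Bii without control 3 (-0.0054). Neither gene passed in any alternative, and the cause of the turns was not tested. The number of probe sets higher was 17 under quantile scaling, 23 under median centring and 17 under cyclic loess, against 10, with 76, 110 and 85 lower, against 107.

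With the replicate block, 4 probe sets were higher and 59 lower, and the member calls stood (limma adjusted p = 0.0217 for Jon99Fi and 0.0251 for Jon99Ci). The replicate numbers do not pair the arrays by their deviations. Over the 15 alternatives, 0 to 5 of the other 7 Jonah genes, 0 to 6 of the other gut serine proteases and 0 to 1 trypsin fell. The differences between pairs of members moved by less than their SE under the 3 other scalings. Jon25Biii lay near the highest intensity of every array, and whether the scale limits its difference was not tested.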
